A study of Homo sapiens with 10 samples.

Results

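The E2F and RB family comprises the E2F transcription factors, their dimerization partner TFDP1 and the pocket proteins RB1 and RBL1. Members were 10 of the 19775 genes measured, E2F1, E2F2, E2F3, E2F4, E2F6, E2F7, E2F8, TFDP1, RB1 and RBL1. Every probe set annotated with only 1 of them was taken, which gave 22 of the 54613 probe sets that are not controls. No probe set of these genes was shared with another gene. They were chosen by the difference between microvesicles and cells itself, since E2F1 had a higher value in microvesicles while most G1/S genes had lower ones. Their differences between the groups are therefore given as a description, without a p-value.

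RNA was measured in 5 preparations of K562, an established human line from chronic myeloid leukaemia with the BCR-ABL1 fusion, and in 5 preparations of the microvesicles that K562 releases. Microvesicles are membrane-bound particles shed into the medium. All preparations are of the same line, the labels name no treatment, and the method that separated microvesicles from cells is not given in the sources used here. The series' design text writes K563 once for the parent line, whereas every sample label writes K562. Each of the 10 preparations was hybridized to its own Affymetrix array, and no label ties a cell preparation to the microvesicle preparation of the same number. All values are log2 expression values made by the authors with RMA. In its usual form this method removes background, gives the arrays a common intensity distribution and summarises the probes of each probe set. A difference of 1 on this scale is a doubling. In pooled RNA of this kind, fewer microvesicles carrying a transcript and fewer copies in each cannot be told apart.

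E2F factors bind DNA as dimers with a DP protein and control genes needed for entry into S phase. E2F1, E2F2 and E2F3 mainly activate transcription, E2F4 acts mainly as a repressor together with pocket proteins, and E2F6 represses without binding a pocket protein. E2F7 and E2F8 are atypical repressors that bind DNA without a DP partner. Unphosphorylated RB1 and RBL1 hold E2F factors inactive until cyclin-dependent kinases phosphorylate them, and several E2F and pocket protein genes are themselves E2F targets.

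Letter matches to the E2F motif were counted in the promoters of the family. RefSeq promoters (GRCh38.p14, 250 bases before to 50 after a transcript start) were found for 9 of the 10 genes. They were searched on both strands for exact matches to TTTGGCGC and TTTCGCGC, which are forms of the E2F motif. Other forms and partial matches were not searched for, so a promoter without a match may still hold an E2F site. A match was found in E2F1, E2F2, TFDP1 and RBL1 (4 of 9 genes, 44.4%), against 382 of 27305 genes with a promoter in the table (1.4%). The matches start 20 bases before the start site in E2F1, 42 in E2F2, 120 in TFDP1 (on the opposite strand) and 26 and 16 in RBL1. A match is a description of the letters and not a measured binding site. The only RB1 entry, at chr13:48476200-48476499, holds 38.3% G and C, against 58.3% to 79.7% in the other entries of the family. Whether it is the main start of RB1 was not checked, so a lack of matches there says nothing about another RB1 promoter. The promoters of E2F1 and RBL1 are shown because these genes share the motif while their values differed in opposite directions between the groups. They lie at chr20:33686336-33686635 and chr20:37095948-37096247, both on the minus strand, and capitals mark only the exact matches.
E2F1: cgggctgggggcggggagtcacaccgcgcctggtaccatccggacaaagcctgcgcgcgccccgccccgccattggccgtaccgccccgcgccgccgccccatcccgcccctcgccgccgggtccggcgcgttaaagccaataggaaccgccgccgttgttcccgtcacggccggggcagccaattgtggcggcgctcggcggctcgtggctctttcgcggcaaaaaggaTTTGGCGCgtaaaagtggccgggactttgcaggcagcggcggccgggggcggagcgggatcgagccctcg
RBL1: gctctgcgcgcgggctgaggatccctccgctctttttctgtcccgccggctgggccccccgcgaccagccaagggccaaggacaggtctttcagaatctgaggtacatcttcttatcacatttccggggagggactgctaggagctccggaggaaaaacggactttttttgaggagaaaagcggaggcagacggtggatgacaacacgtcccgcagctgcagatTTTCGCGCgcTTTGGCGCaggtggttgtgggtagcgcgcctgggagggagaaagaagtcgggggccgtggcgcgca
Cell cycle genes repressed by the DREAM complex often carry another element, TTTGAA, which was found in 1 of the 9 members (E2F3) and in 18.2% of all genes with a promoter.

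The arrays differed between the groups in ways that touch every value below. Pearson correlations between arrays, across probe sets, were 0.990 to 0.997 among cells and 0.911 to 0.944 among microvesicles. Array medians ran from 4.08 to 4.12 in cells and from 4.22 to 4.28 in microvesicles, and the SD over probe sets was 2.34 ± 0.016 and 1.93 ± 0.046 (SD, n = 5 each). The deposited values thus did not have a common intensity distribution across the groups. For ACTB, the control probe set at the 3′ end exceeded that at the 5′ end, a measure of RNA integrity, by 2.26 to 2.57 in cells and 2.72 to 3.64 in microvesicles. For GAPDH the same difference was 0.37 to 0.54 in cells and 0.50 to 0.83 in microvesicles, with overlap. The part of RNA integrity in the differences of the family was not tested. The 11 erythroid and leukaemia markers of K562 that were measured, among them GATA1, TAL1, HBE1 and ABL1, were all above the array medians in both groups, with median values of 8.42 in cells and 7.44 in microvesicles. Of the markers of other blood cells, 2 of 5 lymphocyte, 1 of 6 monocyte and granulocyte and 3 of 5 platelet markers were above the array medians in cells, and 3, 3 and 3 in microvesicles. Their group means ran from 2.22 to 8.18 in cells and from 2.71 to 8.01 in microvesicles, and the highest in both groups was that of the T cell gene CD3D.

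Over the 22 probe sets of the family, 7 were past the threshold with higher values in microvesicles (limma, adjusted p under 0.05 over all probe sets), beside 35.4% of all probe sets. Another 9 were past it with lower values, beside 27% of all probe sets, and 6 were not past it. The groups did not overlap in 5 probe sets that were higher in microvesicles, beside 24% of all, and in 7 that were lower, beside 22% of all. After loess normalization by level, in which each array is fitted against the mean of the 10 arrays, 7 were past the threshold and higher, beside 18.2% of all probe sets, and 7 lower, beside 21.9%. Since this contrast chose the genes, these counts describe the family and nothing more. The median difference, microvesicles minus cells, was -0.18 over the 22 probe sets and 0.27 over all probe sets. E2F1 and E2F4 had higher values in microvesicles in every probe set. E2F7, E2F8, RB1 and RBL1 had values between 3.79-fold and 8.32-fold lower in their leading probe set, that with the highest mean over the 10 arrays. E2F2, E2F3, E2F6 and TFDP1 differed by less than 1 on the log2 scale in all of theirs.

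**Figure D1:**
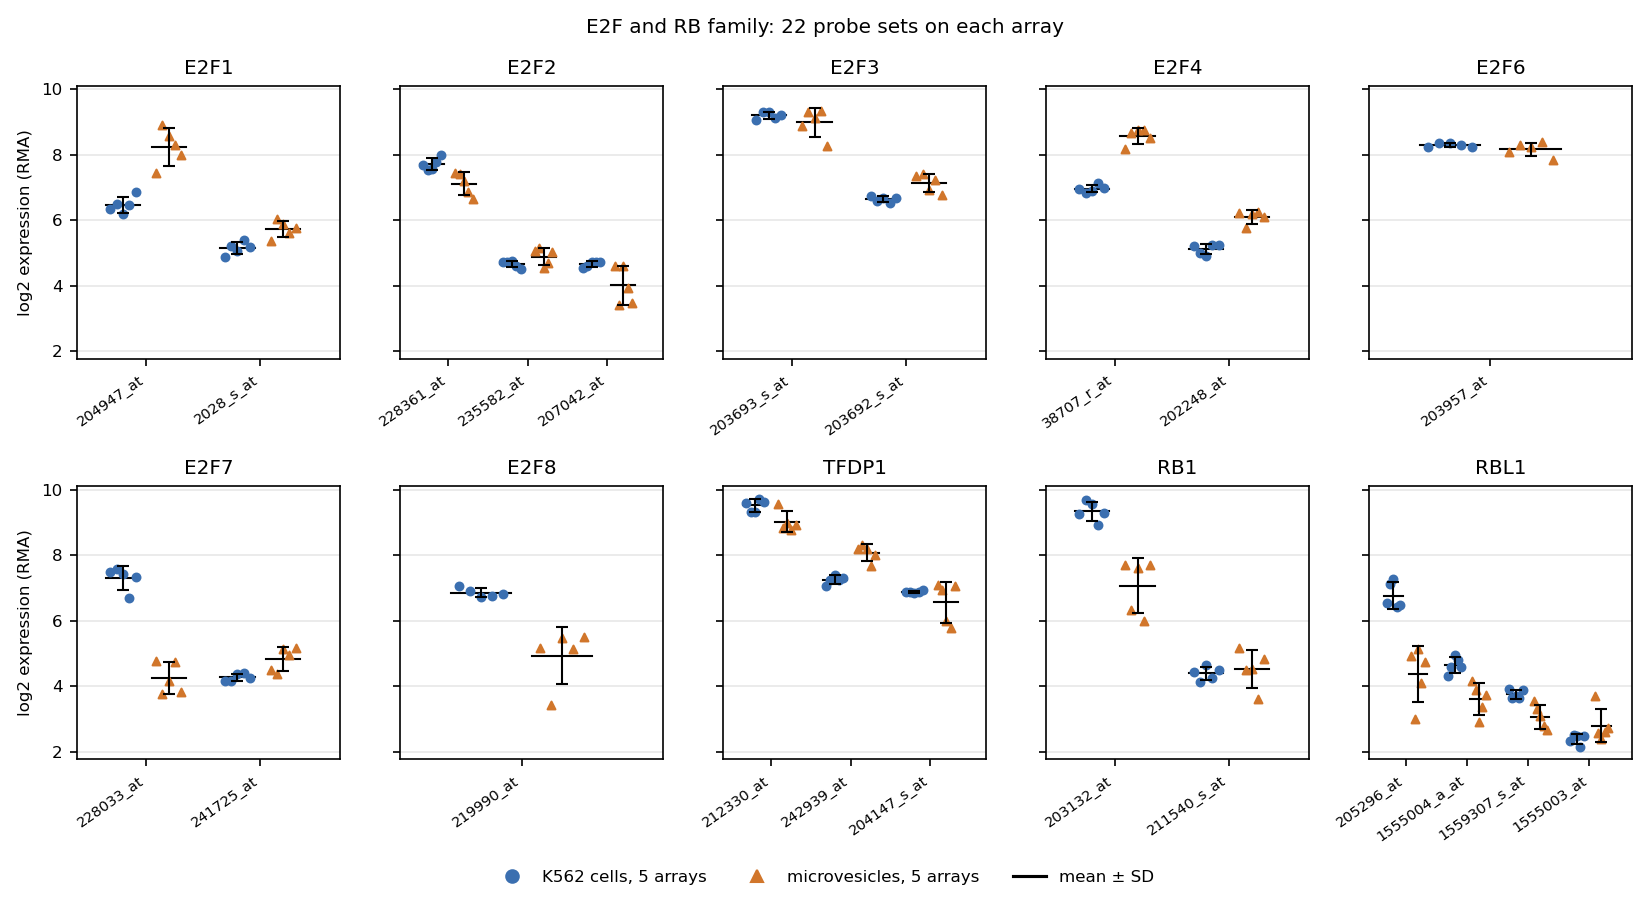
Log2 expression (RMA) of the 22 probe sets of the 10 genes on each array, with 5 K562 cell arrays as circles and 5 microvesicle arrays as triangles; bars are the mean ± SD. Both probe sets of E2F1 and of E2F4 have the higher mean in microvesicles, and the leading probe sets of E2F7, E2F8, RB1 and RBL1 (the leftmost of each gene) have all 5 microvesicle values below all 5 cell values.

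Among the activators, E2F1 had the largest difference. Its leading probe set, 204947_at, read 6.35, 6.50, 6.19, 6.48 and 6.85 on cell arrays 1 to 5 and 7.43, 8.92, 8.56, 8.29 and 7.98 on microvesicle arrays 1 to 5. Every microvesicle array was above every cell array, and the group means were 6.47 ± 0.24 and 8.23 ± 0.57 (SD, n = 5 each). The difference was 1.76 ± 0.25 (SE), or 3.39-fold, and lay between 1.59 and 1.96 when any 1 array was left out. The other probe set, 2028_s_at, read 4.88, 5.21, 5.06, 5.38 and 5.18 in cells and 5.37, 6.04, 5.88, 5.60 and 5.76 in microvesicles. There the lowest microvesicle value was just below the highest cell value, and the difference was 0.58 ± 0.18 (SE). In both probe sets microvesicle array 1 was the lowest and array 2 the highest of the microvesicle group.

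E2F2 did not follow E2F1. Its leading probe set, 228361_at, read 7.69, 7.52, 7.57, 7.76 and 7.98 in cells and 7.43, 7.42, 7.21, 6.85 and 6.66 in microvesicles, without overlap and with a difference of -0.59 ± 0.19 (SE). The probe set 207042_at was lower by a similar amount, -0.65 ± 0.24 (SE), but the groups overlapped, since microvesicle arrays 1 and 3 stood at 4.61 and the other three between 3.41 and 3.93. The remaining probe set, 235582_at, differed by 0.22 ± 0.17 (SE) and overlapped. The sign of 228361_at depended on the scaling of the arrays. It was 0.22 after loess and 0.32 after a second quantile normalization, whereas 207042_at remained negative (-0.84 and -0.77). The group means of 207042_at were 4.66 in cells and 4.01 in microvesicles. The latter lay below the mean array median of 4.26, so with no detection call it is not known to exceed background.

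The probe sets of E2F3 had differences of opposite sign. In 203693_s_at the cell values were 9.05, 9.31, 9.31, 9.12 and 9.20 and the microvesicle values 8.89, 9.30, 9.12, 9.35 and 8.27. These overlapped, with a difference of -0.22 ± 0.21 (SE). In 203692_s_at cells read 6.74, 6.59, 6.66, 6.53 and 6.68 and microvesicles 7.34, 7.40, 6.93, 7.21 and 6.77, without overlap and with a difference of 0.49 ± 0.17 (SE). Array 5 was the lowest microvesicle array in both. After loess the differences were 0.46 and 1.29.

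Of the repressors that need a DP partner, E2F4 was higher in microvesicles in both of its probe sets. In 38707_r_at cells read 6.95, 6.84, 6.89, 7.14 and 6.99 and microvesicles 8.16, 8.65, 8.74, 8.77 and 8.51. All microvesicle values exceeded all cell values by at least 1 unit, and the means were 6.96 ± 0.11 and 8.56 ± 0.25 (SD, n = 5 each), a difference of 1.60 ± 0.17 (SE) or 3.04-fold. In 202248_at cells read 5.20, 5.00, 4.90, 5.24 and 5.23 and microvesicles 6.22, 5.75, 6.20, 6.26 and 6.09. Again the groups did not overlap, and the difference was 0.99 ± 0.16 (SE). Under every scaling tried E2F1 and E2F4 kept a positive difference, from 1.60 to 2.57 for 204947_at and from 1.44 to 2.40 for 38707_r_at.

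E2F6 was measured by 1 probe set. It read 8.24, 8.37, 8.35, 8.31 and 8.22 in cells and 8.07, 8.29, 8.23, 8.37 and 7.84 in microvesicles. The groups overlapped, with a difference of -0.14 ± 0.16 (SE) that turned to 0.62 after loess and 0.68 after quantile normalization.

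The atypical repressors were lower in microvesicles in their leading probe sets. For E2F7, 228033_at read 7.49, 7.59, 7.43, 6.68 and 7.32 in cells and 4.77, 3.77, 4.15, 4.73 and 3.82 in microvesicles. The difference of -3.06 ± 0.25 (SE), 8.32-fold lower, was the largest of the family. The microvesicle mean of 4.25 lay just below the mean array median of 4.26, so with no detection call this level is not known to exceed background and the size of the difference is uncertain. The other probe set of E2F7, 241725_at, was low in cells, at 4.15 to 4.39, and read 4.37 to 5.17 in microvesicles, a difference of 0.56 ± 0.19 (SE). For E2F8 the only probe set read 7.06, 6.92, 6.74, 6.76 and 6.81 in cells and 5.15, 3.43, 5.46, 5.13 and 5.51 in microvesicles. Microvesicle array 2 stood far below the rest. The difference was -1.92 ± 0.33 (SE) with it and -1.54 without it, and the groups did not overlap either way.

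TFDP1, the DP partner of the E2F factors, had 3 probe sets that disagreed. The brightest, 212330_at, read 9.60, 9.32, 9.31, 9.72 and 9.64 in cells and 9.57, 8.84, 8.98, 8.77 and 8.92 in microvesicles. Only microvesicle array 1 lay within the cell range, and the difference was -0.50 ± 0.19 (SE). In 242939_at cells read 7.06, 7.25, 7.41, 7.26 and 7.30 and microvesicles 8.20, 8.30, 8.20, 7.66 and 8.01, without overlap and 0.82 ± 0.17 (SE) higher. In 204147_s_at the cell values were within 6.85 to 6.93, while microvesicle arrays 3 and 4 stood at 5.98 and 5.77 and the other three between 6.92 and 7.09, for a difference of -0.32 ± 0.26 (SE). The mean over the 3 probe sets differed by -0.0029 ± 0.16 (SE). After loess all 3 were positive, at 0.15, 1.62 and 0.46.

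The pocket protein genes were lower in microvesicles. For RB1, 203132_at read 9.27, 9.68, 9.55, 8.93 and 9.27 in cells and 7.69, 6.34, 7.61, 5.99 and 7.71 in microvesicles. The microvesicle arrays fell into a higher trio (1, 3 and 5) and a lower pair (2 and 4), all of them below every cell array. The means were 9.34 ± 0.29 and 7.07 ± 0.83 (SD, n = 5 each), a difference of -2.27 ± 0.33 (SE) or 4.84-fold lower, and -1.51 after loess. The second RB1 probe set, 211540_s_at, read 4.13 to 4.64 in cells and 3.60 to 5.16 in microvesicles, with a difference of 0.13 ± 0.25 (SE). Its cell mean of 4.39 was near the array median, so with no detection call it is not known to exceed background.

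RBL1, a pocket protein that pairs mainly with E2F4, had 4 probe sets. The brightest, 205296_at, read 6.54, 7.12, 7.28, 6.41 and 6.49 in cells and 4.91, 3.01, 5.14, 4.08 and 4.73 in microvesicles. The groups did not overlap, and the difference was -2.39 ± 0.35 (SE), 5.25-fold lower. The microvesicle mean of 4.37 was near the mean array median of 4.26, so the size of this difference is uncertain for want of a detection call. Microvesicle arrays 2 and 4 were the lowest here as they were for RB1. The probe sets 1555004_a_at and 1559307_s_at were lower by smaller amounts, -1.04 ± 0.23 and -0.68 ± 0.19 (SE), both without overlap, with microvesicle means of 3.61 and 3.07 below the array medians. The dimmest, 1555003_at, had group means of 2.38 and 2.79, both below the array medians, and a difference of 0.41 ± 0.23 (SE) that was 0.19 without microvesicle array 1. The 3 brighter probe sets kept a negative difference under every scaling tried.

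**Figure D2:**
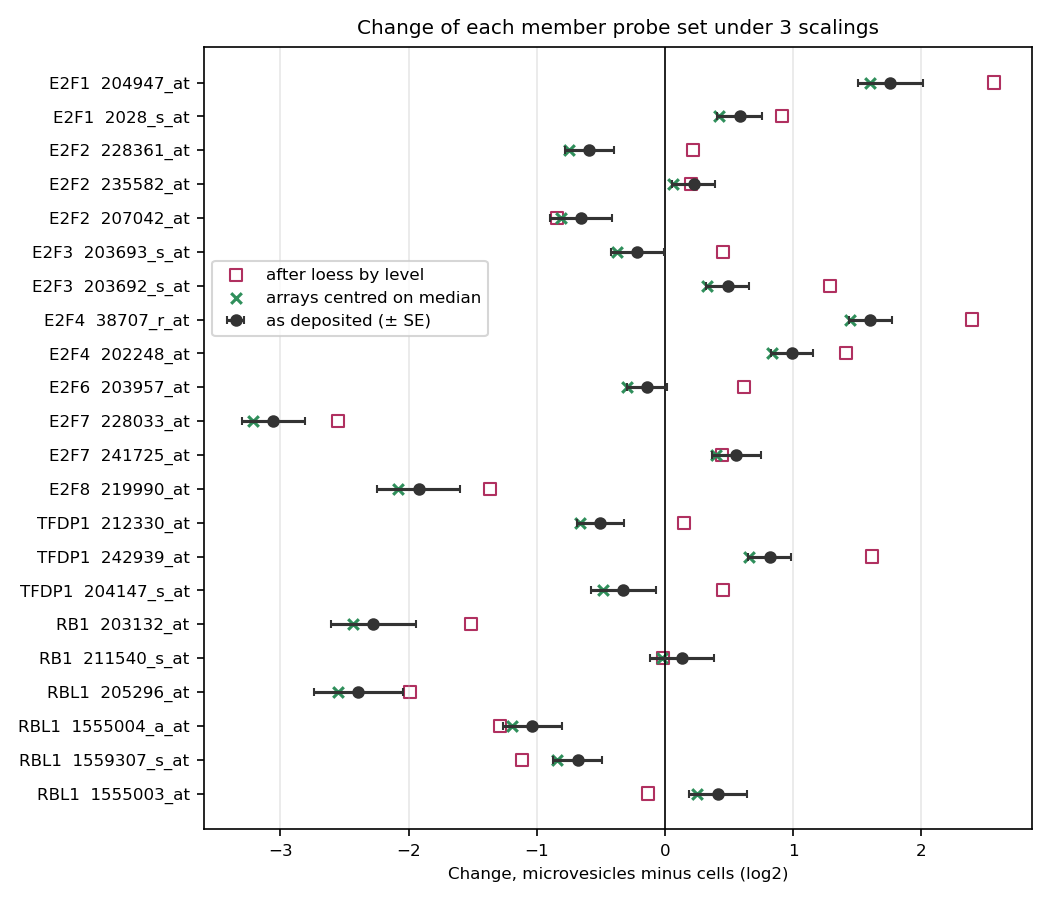
Difference between microvesicles and cells (log2, microvesicles minus cells) for each of the 22 probe sets as deposited (circles, bars are ± SE), after loess normalization by level (squares) and with arrays centred on their median (crosses). E2F1 and E2F4 lie to the right and the leading probe sets of E2F7, E2F8, RB1 and RBL1 to the left of 0 in all 3, whereas the leading probe sets of E2F2, E2F3, E2F6 and TFDP1 change side after loess.

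Within the family, 8 of the 10 genes had more than 1 probe set, and in 6 of these (E2F2, E2F3, E2F7, TFDP1, RB1 and RBL1) the probe sets differed between the groups in both directions. E2F1 and E2F4 were the 2 genes whose probe sets had differences of 1 sign. Across the deposited values, median centring, quantile normalization and loess, 8 probe sets stayed positive, 7 stayed negative and 7 had a sign that depended on the scaling. Those 7 were E2F2 228361_at, E2F3 203693_s_at, E2F6 203957_at, TFDP1 212330_at and 204147_s_at, RB1 211540_s_at and RBL1 1555003_at. The SD over the 5 arrays was larger in microvesicles than in cells in all 22 probe sets, as in 94% of all probe sets. Its median over the family was 0.14 in cells and 0.40 in microvesicles.

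The genes with values most like those of E2F1 were sought by the root mean square difference over the 10 arrays between leading probe sets, each taken relative to its own mean in cells. OTUD3, a deubiquitinase gene, was the nearest of 19774 genes, with a difference of 0.10 against a median of 1.21. It read 6.43, 6.28, 6.22, 6.34 and 6.79 in cells and 7.58, 8.86, 8.47, 8.26 and 7.92 in microvesicles, so its microvesicle arrays stood in the same order as those of E2F1. MROH2B (0.24), CRIP2 (0.25), SLC26A8 (0.26) and KHNYN (0.26) followed. The cell means of MROH2B, CRIP2 and SLC26A8 lay below the mean array median of 4.10 in cells. The microvesicle mean of SLC26A8, 3.91, also lay below that of microvesicles, 4.26. With no detection call these levels are not known to exceed background. The leading probe sets of MROH2B and KHNYN changed by 1.86 and 1.83, but the means of their probe sets by 0.94 and 1.10. E2F4 was the nearest member of the family, at 0.31 and rank 20, and the next was E2F6 at 1.39 and rank 11580. RBL1 (3.07) and E2F7 (3.47) were the most distant members.

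**Figure D3:**
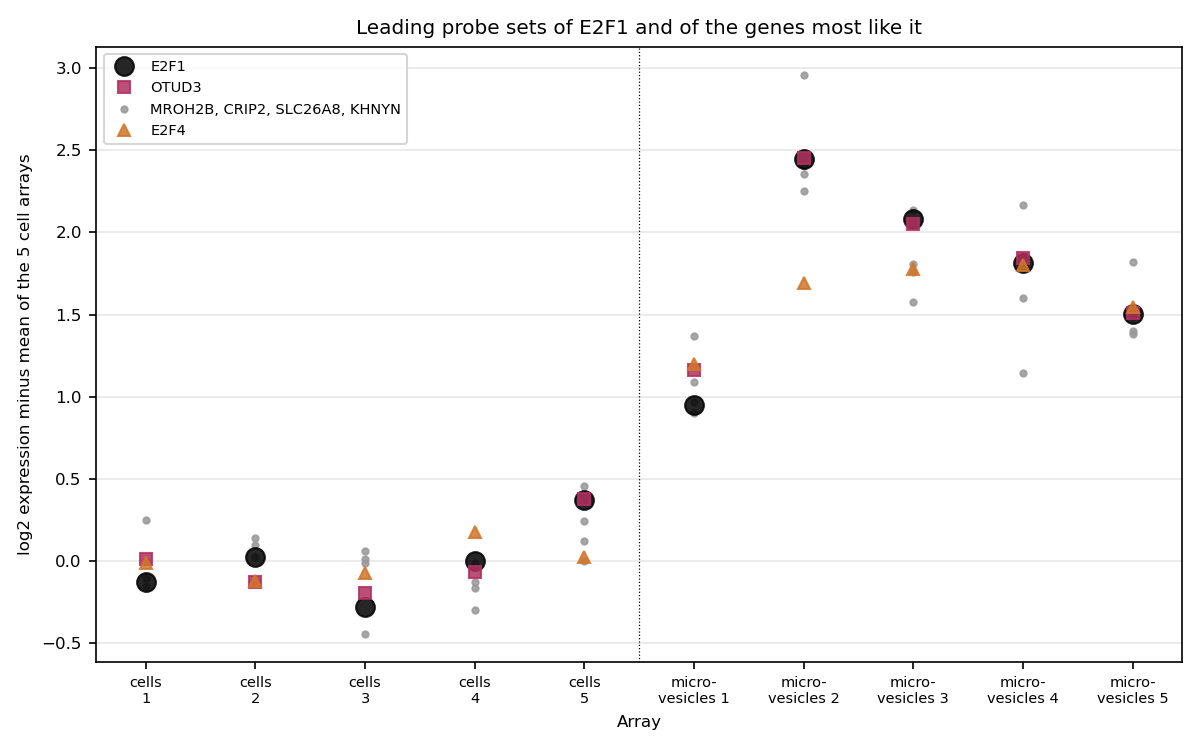
Log2 expression relative to the mean of the 5 cell arrays, for the leading probe sets of E2F1, the 5 genes nearest to it and E2F4, on each of the 10 arrays. OTUD3 lies close to E2F1 on every array, while E2F4 lies below E2F1 on microvesicle array 2 and above it on array 1.

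Other genes of the pathway were taken from 6 lists, with 1 probe set per gene and p-values adjusted over all 19775 genes. Of all genes, 35.5% were higher and 31.2% lower in microvesicles past the threshold, with a median change of 0.20. After loess these were 26.2% and 19.1%, with a median of 0.14. The contrast is the one that chose the family, and a fall of most G1/S genes was part of that choice.

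Of the 4 family genes outside the 10, RBL2 and E2F5 fell, TFDP3 rose and TFDP2 did not pass. RBL2, the pocket protein of resting cells, read 7.57, 8.04, 7.94, 7.56 and 7.85 in cells and 5.57, 5.20, 5.43, 5.29 and 5.48 in microvesicles. Its groups were tight and far apart, with a change of -2.40 ± 0.16 (SE, limma adjusted p = 1.85e-07) and -1.64 after loess. E2F5, a pocket protein partner like E2F4, changed by -1.72 ± 0.27 (SE, limma adjusted p = 0.000149), whereas the mean of its probe sets changed by -0.69. The DP gene TFDP2 changed by -0.68 ± 0.29 (SE, limma adjusted p = 0.0541) in its brightest probe set, and the mean of its 4 probe sets changed by -1.17 (adjusted p = 3.91e-05). The brightest probe set passed with the replicate number as a block (adjusted p = 0.0243), with arrays centred on their median (0.0258), with a variance trend and robust fitting (0.0430), with array weights (0.0192) and without microvesicle array 1 (0.0070), but stood at 0.072 after loess and 0.11 after quantile normalization. TFDP3 changed by 0.89 ± 0.21 (SE, limma adjusted p = 0.00276), from 2.75 in cells to 3.64 in microvesicles, both below the array medians, and did not pass after loess.

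The DREAM complex joins a pocket protein and E2F4 to the MuvB core, which later binds B-MYB and FOXM1. Of its 8 genes 5 fell and 1 rose, and the median change was -0.69. After loess there were 3 falls and 2 rises, with a median of -0.28. The core subunit genes LIN37 and LIN9 changed by -1.73 ± 0.19 and -1.10 ± 0.24 (SE, limma adjusted p = 9.41e-06 and 0.00147), but the means of their probe sets by -0.68 and -0.14. FOXM1, the mitotic activator, changed by -1.08 ± 0.25 (SE, limma adjusted p = 0.00213) and by -0.33 after loess. The 1 rise was that of MYBL1, a MYB family gene named here after its values were seen, at 1.11 ± 0.17 (SE), and the mean of its 3 probe sets changed by 0.11. MYBL2, which encodes B-MYB, stood at -0.29 ± 0.24 (SE) and did not pass.

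Among 16 measured cyclin, kinase and inhibitor genes that act on pocket proteins, 6 fell and 0 rose by limma (0 also at an unadjusted p under 0.05), while 10 did not pass. The median change was -0.23, and 0.031 after loess, where 4 fell and 3 rose. CCNE2, an E-type cyclin, changed by -2.76 ± 0.31 and CCNA2, the S phase cyclin A, by -1.48 ± 0.25 (SE). Both are counted among the 6 falls. CCNE2, CCNA2, the other genes of this list, SKP2 and MYC are given as a description without a p-value. A fall of most G1/S genes was part of how the family was chosen. The inhibitor CDKN1B changed by -1.36 ± 0.24 (SE). CDK6, an RB kinase, changed by -0.85 ± 0.21 (SE), but by -0.058 after loess. The D-type cyclin CCND3 changed by -0.39 ± 0.15 (SE), past the threshold as deposited, and turned to 0.25 after loess. It did not pass with the replicate number as a block, with array weights or without cell array 1, 4 or 5. CCND1 (-0.16 ± 0.23), CCND2 (0.030 ± 0.17), the kinase CDK4 (-0.30 ± 0.14) and the inhibitors CDKN1A (0.30 ± 0.25) and CDKN2A (0.33 ± 0.23, all SE) did not pass. CDK4 did pass with arrays centred on their median, with a variance trend and robust fitting, in the fit of probe set means and without microvesicle array 1. Its change was -0.45 after median centring and 0.29 after loess, where it did not pass. The mean of the 3 probe sets of CDKN2A changed by 0.73 and passed. After loess CCND2 stood at 0.74 and CDKN1A at 0.86, both past the threshold. SKP2, which marks CDKN1B for degradation, changed by -1.01 ± 0.20 (SE), and MYC, an upstream driver of E2F genes, by -1.17 ± 0.18 (SE).

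Corepressors that work with RB1 or E2F6 had 13 falls and 1 rise among 20 measured genes, with a median change of -1.09. After loess 9 fell, 5 rose and the median was -0.47. The largest falls were those of ARID4B, an RB-binding subunit of the SIN3 complex (-2.65 ± 0.24), the histone methyltransferase gene EHMT1 (-2.61 ± 0.20) and the scaffold gene SIN3A (-1.97 ± 0.20, all SE, limma adjusted p = 1.85e-06, 5.85e-07 and 3.71e-06). The means of their probe sets changed by -0.91, -0.89 and -0.68. WDR5, a WD repeat subunit shared by chromatin complexes, rose by 1.47 ± 0.22 (SE, limma adjusted p = 9.93e-05), and the mean of its 2 probe sets changed by 0.43. The deacetylase genes HDAC1 and HDAC2 stood at -0.26 ± 0.14 and -0.31 ± 0.15 (SE) and did not pass.

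For the E2F target genes of G1/S the values are a description, since lower values of most G1/S genes in microvesicles were part of how the family was chosen. All 45 measured genes had lower means in microvesicles, the differences ran from -2.75 to -0.27 and the median was -1.44. In limma 43 were past the threshold and lower and 0 higher (44 and 0 at an unadjusted p under 0.05), beside 31.2% and 35.5% of all genes. The target genes were bright, with a median of 9.23 in cells against a mean array median of 4.10, whereas those shares come from genes of every level. The part of level in these differences was not tested. After loess 26 were lower and 0 higher (0 also unadjusted), with a median of -0.73, and after quantile normalization 21 were lower. GINS2 (0.34), CDC25A (0.29) and MCM7 (0.29) had positive differences after loess. The largest differences were those of DBF4, the activator of the CDC7 kinase (-2.75 ± 0.31), the polymerase epsilon subunit gene POLE2 (-2.72 ± 0.35) and the origin factor gene MCM10 (-2.66 ± 0.33, all SE). GINS2 (-0.27 ± 0.19) and CDC25A (-0.50 ± 0.22, SE) were the 2 genes not past the threshold. An exact match to TTTGGCGC or TTTCGCGC was found in the promoters of 14 of the 41 target genes in the table (34.1%).

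Apoptosis genes named in textbooks as E2F1 targets had 4 falls and 1 rise among 8 measured genes, with a median change of -0.28 that was 0.50 after loess, where 3 fell and 4 rose. The caspase scaffold gene APAF1 changed by -2.34 ± 0.19, the initiator caspase gene CASP8 by -2.16 ± 0.25 and the BH3-only gene PMAIP1 by -1.56 ± 0.17 (SE, limma adjusted p = 8.23e-07, 1.17e-05 and 7.69e-06). The means of the probe sets of APAF1 and CASP8 changed by -0.68 and -0.67. The 1 rise was that of TP73, a p53 family gene named here after its values were seen, at 0.97 ± 0.22 (SE), from 4.44 in cells to 5.41 in microvesicles.

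**Figure D4:**
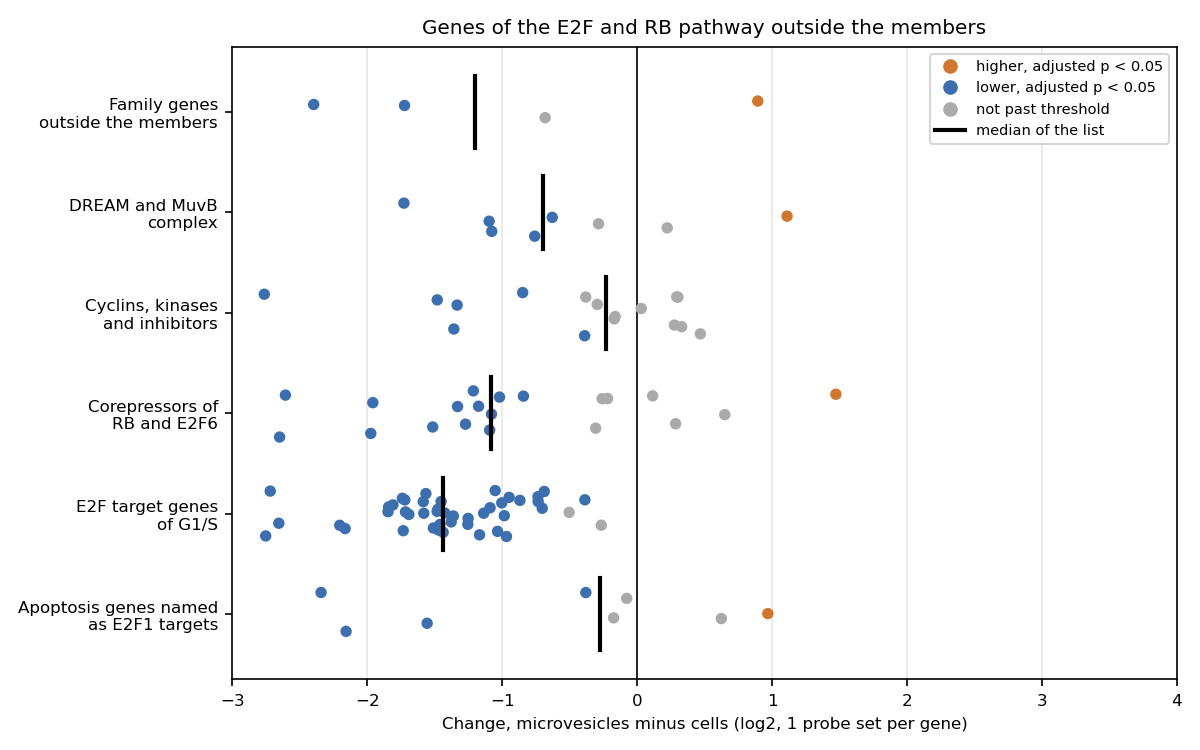
Change between microvesicles and cells (log2, 1 probe set per gene) for the measured genes of 6 pathway lists outside the family, where each point is a gene coloured by its call and the black line is the median of the list. Of the 45 E2F target genes 43 are called lower and 0 higher, and the medians of all 6 lists are below 0 in the deposited values.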

How the data were processed

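Per the labels' protocols, Trizol extracts of 5 independent experiments were labelled as biotinylated cRNA. The authors deposited log2 expression values per probe set, 1 column per array, with RMA named as the method in the submitters' processing notes and its version not given in the sources used here. The number of arrays and the spread among them limit the precision. Array medians, given in the report, differed between the groups. The values carry no detection call. RMA assumes a shared intensity distribution, which the deposited values did not have across groups, and a different total amount of RNA is not visible.

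The table holds 54630 probe sets, of which 17 controls were left out. Symbols came from the platform annotation and were updated by gene number (41091 probe sets with 1 gene, 1801 with several, 11721 with none listed). Groups were compared with limma 3.58.1 in R 4.3.3 (lmFit and eBayes, 2-sided, Benjamini-Hochberg, threshold 0.05) over all 54613 probe sets, and over 19775 genes with the probe set of highest mean for each. No dim filter was applied. The p-values reflect only the spread among these preparations, which the protocols name as independent experiments, and part of that spread may be technical. The fit was tested on simulated data. The members and lists were chosen with earlier results of these data known. Named genes were up to 3 rises and 3 falls per list with a group mean of at least 6, a fixed set of family, cyclin and inhibitor genes, and the 5 genes nearest to E2F1. Alternatives were the replicate block, median centring, quantile normalization, loess (span 0.4), a level filter, trend with robust fitting, array weights, probe set means and leaving out each array.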

Additional observations from a re-analysis of the deposited data

Results flagged for a closer look

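In 102 sets of 5 values (51 probe sets in each of 2 groups), 6 held an array that stood far from the other four, and chance gives about 1 in 20. All were microvesicle arrays. E2F8 was low on array 2, at 3.43 against 5.13 to 5.51 on the others. TFDP1 212330_at was high on array 1, at 9.57 against 8.77 to 8.98, and RBL1 1555003_at was high on array 1, at 3.69 against 2.38 to 2.73. POLE2 was high on array 1, at 8.24 against 5.96 to 6.52. CDKN1B was low on array 5, at 7.55 against 8.41 to 8.73, and PMAIP1 on array 2, at 7.50 against 7.94 to 8.09.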

How the results depend on the processing

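Among the counts, those below moved by more than 1.5 times with the scaling. The family probe sets past the threshold and higher in microvesicles numbered 7 as deposited and 4 with arrays centred on their median. Centring lowered the difference of every probe set by the same amount, for E2F1 204947_at from 1.76 to 1.60. Shares of all probe sets and genes were counted only as deposited and after loess. Counts under the other settings are therefore not results about the family or the lists. The E2F target genes past the threshold and lower numbered 43 as deposited, 21 after quantile normalization and 26 after loess. For the partner and regulator genes (family genes outside the 10, DREAM, cyclins and kinases, corepressors) 26 fell and 3 rose as deposited, 16 fell and 11 rose after quantile normalization, and 10 rose after loess. Signs were followed for the family probe sets and the genes named by the rule above. Among those past the threshold before or after, signs turned after quantile normalization and loess for E2F2 228361_at (0.32 and 0.22), E2F6 (0.68 and 0.62), TFDP1 212330_at (0.10 and 0.15) and CCND3 (0.19 and 0.25, and 0.11 as the mean of probe sets). That of CDK6 turned after quantile normalization (0.0089). Values past it under neither turned for E2F3 203693_s_at (0.44 and 0.46), TFDP1 204147_s_at (0.48 and 0.46), RBL1 1555003_at (-0.029 and -0.14), TFDP2 (0.11 and 0.072) and CDK4 (0.22 and 0.29). Other genes of the lists turned after loess too. CASP9 went from -0.38 (limma adjusted p = 0.0402) to 0.43 (limma adjusted p = 0.0353). Further examples were MCM7 (-0.39 to 0.29), RING1 (-0.22 to 0.56), CDKN1C (-0.17 to 0.64) and BID (-0.077 to 0.68). For some genes the mean of probe sets moved the change further than loess or quantile normalization did. Among them were E2F5, LIN9, LIN37, MYBL1, CCND1, CDKN2A, EHMT1, ARID4B, SIN3A, WDR5, APAF1 and CASP8. The replicate block ended the call of CCND3 and gave one to TFDP2. Under the level filter, trend with robust fitting, array weights and probe set means no count moved by more than 1.5 times. With the replicate number as a block 7 family probe sets were higher and 9 lower, 42 target genes were lower, and 26 partner genes fell and 3 rose. Same-numbered cell and microvesicle arrays correlated between -0.025 and 0.11 in their deviations from the group means, so the numbers were not taken as pairs; 3 of 5 microvesicle arrays correlated best with their own number. Leaving out each array gave 5 to 7 family probe sets higher and 7 to 9 lower, 41 to 44 target genes lower, and 25 to 29 partner genes lower and 3 to 4 higher. Values near the array median are not known to exceed background.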
